A study of Homo sapiens with 10 samples.

Results

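The genes examined were 10 members of the NRF2 and glutathione defence, listed by symbol: NFE2L2, TXN, TXNRD1, NQO1, GCLC, GCLM, SRXN1, HMOX1, OSGIN1 and UGDH. Members were taken by symbol, with no threshold on a measured value, from a list drawn up when earlier results of these data were known. For 7 of the 10 a probe set was named in the platform annotation, 1 probe set each, out of 14884 named genes in all. NQO1, GCLC and GCLM were not analysed here, so the results cover neither subunit of the enzyme that makes the first bond of glutathione. The arrays came from MCF10A, an immortalised, non-tumorigenic human breast epithelial line. There were 5 arrays of parental cells (genotype H2A.X WT) and 5 of cells knocked out for the gene of the histone variant H2A.X (H2A.X-KO). Both groups were kept for 48 h in the same medium, which held 5% horse serum, 20 ng/ml EGF, 500 ng/ml hydrocortisone, 100 ng/ml cholera toxin and 10 μg/ml insulin. The labels do not say whether the 5 samples of a group were separate cultures, or whether the knockout was 1 clone or several, so the tests reflect sample-to-sample spread alone, and that spread may be technical.

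NFE2L2 encodes NRF2, a transcription factor that in unstressed cells is held by KEAP1 and passed to a CUL3 ubiquitin ligase for degradation. Oxidants and electrophiles modify cysteines of KEAP1, NRF2 accumulates, pairs with small MAF proteins and binds antioxidant response elements in front of genes for thiol reduction, glutathione supply and detoxification. Because control acts largely on the protein, the mRNA of NFE2L2 need not follow the activity of NRF2, and its target genes are the usual readout in expression data.

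The antioxidant response element has the core TGACNNNGC, with N any base. In the RefSeq windows of GRCh38.p14 around annotated gene starts, 9 of the 10 members had at least 1 window, 11 windows in all, and HMOX1 had none. The core was found on either strand in 3 of these 11 windows, from TXNRD1 and GCLM, against 13.3% of all 35116 windows of the same length. Both windows of TXNRD1 held it, and TXNRD1 was among the members that fell in knockout cells. The windows of SRXN1 and UGDH, the other members that fell, held no core, but sequence outside these 300-base windows was not searched. The stretches below lie at positions -150 to -51 from 2 annotated starts of TXNRD1 and from the start of TXN, its substrate gene, which changed in the opposite direction; capitals mark the core.
TXNRD1, first start, plus strand, chr12:104215629-104215728: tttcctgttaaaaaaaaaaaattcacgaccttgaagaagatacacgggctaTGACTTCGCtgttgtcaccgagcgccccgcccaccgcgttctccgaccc
TXNRD1, second start, plus strand, chr12:104286882-104286981: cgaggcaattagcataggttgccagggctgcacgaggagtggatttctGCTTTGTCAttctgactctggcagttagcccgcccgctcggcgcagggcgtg
TXN, minus strand, chr9:110256558-110256657: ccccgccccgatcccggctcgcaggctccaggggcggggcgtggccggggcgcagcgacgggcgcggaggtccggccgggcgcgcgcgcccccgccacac
In the first TXNRD1 window the core spans positions -99 to -91 on the coding strand, and another match, GCTCCGTCA, on the opposite strand, spans -8 to 0 and ends on the start itself. In the second, which lies inside the span of the gene, the core is on the opposite strand at -102 to -94. The 300-base window of GCLM, a member with no value here, held GCTTAGTCA at -34 to -26. The AP-1 letters TGANTCA, searched on both strands, occurred in 1 member window, that of OSGIN1 (TGACTCA at -97 to -91), against 7.71% of all windows. Neither the cyclic AMP response element TGACGTCA (1.85% of all windows) nor the C/EBP-ATF letters TTGCATCA (0.866%) occurred in any member window. A match describes letters only. No binding was measured, and the letters of the other windows say nothing of the factor.

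Median log2 signals of the arrays ran from 4.26 to 4.35. Across the 14884 genes, arrays of a group correlated at 0.991 to 0.996 and arrays of different groups at 0.975 to 0.979. Knockout replicate 1 stood somewhat apart, with correlations of 0.991 to 0.992 with the other knockout arrays, against 0.993 to 0.995 among those, so the limma differences, the counts of genes called and the within-array shifts were also computed without it. The knocked out gene was not analysed here, and groups rest on the labels. The epithelial identity could be checked on 3 of 10 basal mammary markers, KRT5, KRT14 and EGFR. All 3 rose, and their summed signal ran from 11.22 to 11.32 (log2) in parental and from 12.32 to 12.49 in knockout arrays. Of 4 measured fibroblast markers, all below the median of gene means, DCN rose and DPT fell, with summed signals of 6.26 to 6.48 and of 6.95 to 7.17. Summed immune markers (4 of 8 measured, 1 rose and 2 fell) ran from 8.63 to 8.85 and from 8.48 to 8.74. Endothelial ones (4 of 6, 1 rose) ran from 6.43 to 6.58 and from 7.13 to 7.36, and those of adipocytes (4 of 6, 1 fell) from 6.28 to 6.57 and from 6.05 to 6.22. In the fibroblast and endothelial lists only DCN (2.06) and KDR (1.69) rose past the threshold, so these higher sums rest on single genes. The part of these shifts in the results that follow was not tested, and in bulk RNA fewer cells of a type and less RNA per cell cannot be told apart.

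Knockout cells had less RNA of the thioredoxin reductase gene TXNRD1, the sulfiredoxin gene SRXN1 and the UDP-glucose dehydrogenase gene UGDH, and slightly more of the thioredoxin gene TXN. NFE2L2 itself, the heme oxygenase gene HMOX1 and OSGIN1 did not pass the test. By limma with Benjamini-Hochberg adjustment over all genes, at an adjusted p under 0.05, 1 member rose, 3 fell and 3 of the 7 with a value did not pass. Of all genes, 34.3% passed, 15.3% upward and 19.0% downward, and among genes above the median of gene means (5.49), where 6 of the 7 members lie, 55.6% passed. The 4 members called are 57.1% of the 7, against 34.3% of all genes. All 4 lie among the 6 above the median of gene means, too few to set a firm share against 55.6%. Adjustment over all 16098 named probe sets, of which 33.2% passed, gave the same counts. Groups did not overlap in the same 4 members, against 28.2% of all genes. The median difference over the 7 was -0.30, against 0.00 over all genes.

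**Figure D1:**
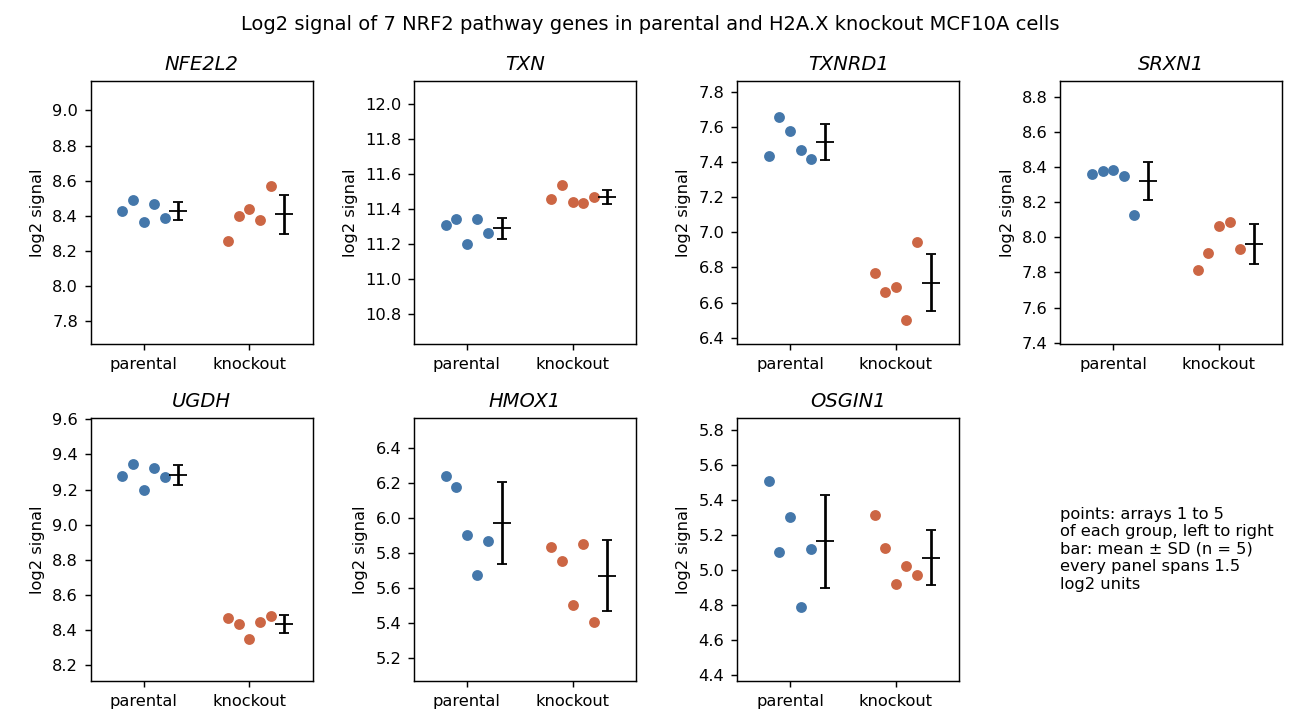
Log2 signal of the 7 measured members in each of 10 arrays, 5 parental and 5 knockout, with the mean and SD beside the points; every panel spans the same height. The groups are apart in TXN, TXNRD1, SRXN1 and UGDH and overlap in NFE2L2, HMOX1 and OSGIN1.

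NFE2L2 (probe set 16905475), on chromosome 2, had log2 signals of 8.42, 8.49, 8.36, 8.47 and 8.39 in the parental arrays and of 8.26, 8.40, 8.44, 8.38 and 8.57 in the knockout arrays. The lowest and the highest of the 10 values were both knockout arrays, replicates 1 and 5, and the groups overlapped. Means were 8.43 ± 0.05 and 8.41 ± 0.11 (SD, n = 5 each), and the difference, knockout minus parental, was -0.02 with a 95% interval from -0.16 to 0.12 (limma, adjusted p = 0.866). Its sign was not settled: without knockout replicate 1 the difference was 0.02, and under quantile normalisation 0.03. The interval shows how large a change of the mRNA these arrays could have missed, and the amount of NRF2 protein was not measured.

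TXNRD1 encodes the selenoprotein that uses NADPH to reduce thioredoxin, and it is a textbook NRF2 target. Its probe set (16756163, gene on chromosome 12) read 7.44, 7.66, 7.58, 7.47 and 7.42 in parental arrays and 6.77, 6.66, 6.69, 6.50 and 6.95 in knockout arrays. Every knockout array lay below every parental array. TXNRD1 fell by 0.80 ± 0.08 (SE) on the log2 scale, from 7.51 ± 0.10 to 6.71 ± 0.16 (SD, n = 5 each), a 1.74-fold lower signal (limma, adjusted p = 5.54e-06). Leaving out any of the 10 arrays moved the difference only between -0.86 and -0.75. With 1 probe set for the gene, no separate values could be given to the 2 starts printed above.

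TXN encodes thioredoxin, the small dithiol protein that TXNRD1 keeps reduced. Its signals (probe set 17097052, gene on chromosome 9) were 11.31, 11.34, 11.20, 11.34 and 11.26 in parental and 11.46, 11.54, 11.44, 11.44 and 11.47 in knockout arrays. The groups did not overlap, but the gap was narrow, from 11.34 to 11.44. TXN rose by 0.18 ± 0.05 (SE), from 11.29 ± 0.06 to 11.47 ± 0.04 (SD, n = 5 each), a 1.13-fold higher signal (limma, adjusted p = 0.0174). The call ended without parental replicate 3, the lowest of the 10 arrays (0.15, adjusted p = 0.0507), and with each array centred on its median (0.15, adjusted p = 0.0624).

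The change of TXNRD1 was set against that of TXN within each array, a comparison that an equal shift of all signals of an array cannot move. Scaling that depends on signal can move it. Under quantile normalisation the differences were -0.77 for TXNRD1 and 0.21 for TXN, and the pair was not tested in that setting. TXNRD1 minus TXN was -3.87, -3.68, -3.62, -3.87 and -3.84 in parental arrays and -4.69, -4.88, -4.75, -4.93 and -4.52 in knockout arrays. These differences between probe sets carry no meaning as levels, and only their shift between groups does. The shift was -0.98 with a 95% interval from -1.18 to -0.77, and no knockout array reached the parental range. An exact two-sided permutation test over the 252 assignments of arrays gave p = 0.00794, the smallest that 5 against 5 allows (adjusted p = 0.0159 over the 2 pairs run). Every knockout array was already lower for TXNRD1 and higher for TXN than every parental array. The separation and this p were therefore fixed by the differences of the separate genes and lend them no further support. What the comparison adds is the size of the unequal change.

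SRXN1 encodes sulfiredoxin, which restores peroxiredoxins that have been overoxidised by peroxide. Signals (probe set 16916352, gene on chromosome 20) were 8.36, 8.38, 8.38, 8.35 and 8.13 in parental and 7.81, 7.91, 8.06, 8.09 and 7.93 in knockout arrays. The groups did not overlap, although parental replicate 5 was only just above the highest knockout array. SRXN1 fell by 0.36 ± 0.07 (SE), from 8.32 ± 0.11 to 7.96 ± 0.11 (SD, n = 5 each), 1.28-fold lower (limma, adjusted p = 0.00152). With an array left out the difference ran from -0.41 to -0.32 and stayed past the threshold each time.

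UGDH encodes the enzyme that oxidises UDP-glucose to UDP-glucuronic acid, the donor for glucuronidation of xenobiotics and a building block of hyaluronan and proteoglycans. Its probe set (16975310, gene on chromosome 4) read 9.28, 9.35, 9.20, 9.32 and 9.27 in parental arrays and 8.47, 8.44, 8.35, 8.44 and 8.48 in knockout arrays. No other measured member had so wide a gap for so small a spread: the pooled SD within groups was 0.05, a value under which only 3.98% of all genes lay. The difference was -0.85 ± 0.05 (SE, limma, adjusted p = 6.06e-08), or 1.80-fold lower signal. In absolute size it exceeded the differences of 96.0% of all genes, and that of TXNRD1 exceeded 95.3%.

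HMOX1 encodes heme oxygenase, which breaks heme into biliverdin, carbon monoxide and iron. Signals (probe set 16929562, gene on chromosome 22) were 6.24, 6.18, 5.90, 5.67 and 5.87 in parental and 5.83, 5.75, 5.50, 5.85 and 5.41 in knockout arrays. Only 2 knockout arrays lay below the lowest parental array. Means were 5.97 ± 0.23 and 5.67 ± 0.20 (SD, n = 5 each), with a difference of -0.30 and a 95% interval from -0.56 to -0.04, which misses the threshold after adjustment (limma, adjusted p = 0.0707). The interval is unadjusted. Without parental replicate 4, the lowest parental array, HMOX1 passed (-0.38, adjusted p = 0.0245). Without any other single array it did not pass, and its difference was as small as -0.24 without parental replicate 1 (adjusted p = 0.165). Among other settings, quantile normalisation left it short of the threshold (adjusted p = 0.0657). It passed with each array centred on its median (-0.33, adjusted p = 0.0422), and when only genes above the median of gene means were tested (adjusted p = 0.0339). A variance model with a trend on intensity gave an adjusted p of 0.0494, and 0.0471 with robust estimation.

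OSGIN1, an oxidative stress-induced growth inhibitor gene, was the only measured member below the median of gene means. Its probe set (16821414, gene on chromosome 16) read 5.51, 5.11, 5.30, 4.79 and 5.12 in parental and 5.31, 5.13, 4.92, 5.02 and 4.97 in knockout arrays, all knockout values inside the parental range. The difference was -0.09 with a 95% interval from -0.35 to 0.16 (limma, adjusted p = 0.613), and it ran from -0.19 without parental replicate 4 to -0.01 without parental replicate 1, never past the threshold. Differences of dim probe sets are compressed, so this value does not show that OSGIN1 stayed the same.

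**Figure D2:**
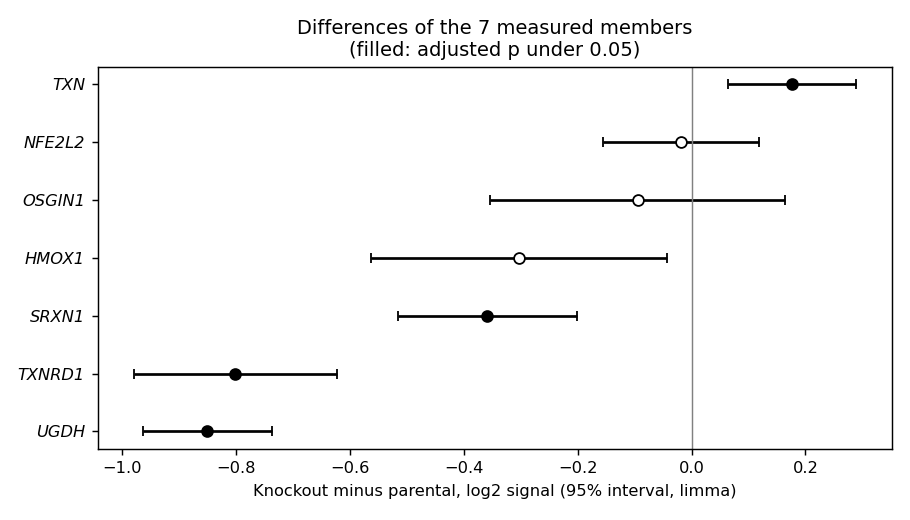
Difference in log2 signal, knockout minus parental, for the 7 measured members with 95% intervals from limma (n = 5 arrays a group); filled points passed at an adjusted p under 0.05. UGDH (-0.85) and TXNRD1 (-0.80) lie far below 0, SRXN1 at -0.36, and TXN (0.18) is the only point past the threshold above 0.

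The members differed in how much they varied between arrays of a group. TXN and UGDH had pooled SDs of 0.05 each, NFE2L2 0.09, SRXN1 0.11 and TXNRD1 0.14, against a median of 0.13 over all genes. HMOX1 and OSGIN1 had 0.22 each, larger than in about 89.5% and 89.3% of all genes. After the group means were removed, deviations of HMOX1 and OSGIN1 correlated at r = 0.72 over the 10 arrays, and those of TXN and UGDH at r = 0.67. The lowest of the 21 correlations was between NFE2L2 and OSGIN1, at -0.55. TXNRD1 and SRXN1, both lower in the knockout, correlated at -0.12. These are descriptions of 10 arrays that share scaling, in which members do not form a single block.

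Among genes above the median of gene means, those whose signals followed a member most closely over the 10 arrays were found for 3 of them. For UGDH they were UGGT1, MTDH and BROX (Pearson's r of 0.999, 0.997 and 0.996), which differed by -0.80, -0.72 and -0.53. For TXN they were TRIAP1, CUL5 and UBAP2 (0.983, 0.967 and 0.965). For NFE2L2, whose group means were nearly equal, TMEM168, PCID2 and MOSMO came closest, at 0.910, 0.895 and 0.880. With 2 groups that stand apart, a high correlation for UGDH and TXN mostly restates the group difference.

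Genes that control NRF2 moved in both directions. Of 13 measured regulators and partners 3 rose, 5 fell and 5 did not pass, with a median of -0.14. These calls are 61.5% of the list, against 34.3% of all genes. Of the 12 above the median of gene means 66.7% were called, against 55.6% of all such genes. SQSTM1, whose product p62 binds KEAP1 and draws it into autophagy, fell by 0.68 ± 0.05 (SE, adjusted p = 3.33e-07), and SQSTM1 is itself a known NRF2 target. MAFG, a small MAF partner of NRF2, fell by 0.31. So did BTRC and GSK3B, of a KEAP1-independent route of NRF2 degradation, by 0.31 and by 0.27. COPS5, a subunit of the COP9 signalosome that acts on cullin ligases, fell by 0.30, with overlapping groups. DPP3 and PALB2, whose products can bind KEAP1, rose by 0.91 ± 0.06 and 0.65 ± 0.05 (SE, adjusted p = 2.11e-07 and 7.38e-07). The ligase scaffold CUL3 was at -0.14 and did not pass, nor did NFE2L1 (-0.05), the gene of a related factor.

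KEAP1, the inhibitor itself, read 7.84, 7.94, 7.94, 7.87 and 7.83 in parental arrays and 7.87, 8.07, 8.14, 8.13 and 8.13 in knockout arrays. Of the knockout arrays only replicate 1 fell inside the parental range. KEAP1 rose by 0.18 ± 0.06 (SE, limma, adjusted p = 0.0416), a call close to the threshold. It was 0.23 without knockout replicate 1 (adjusted p = 0.00364), and leaving out any other single array ended the call, at adjusted p from 0.0502 to 0.0919. Centring of each array ended it too (0.16, adjusted p = 0.131), while quantile normalisation did not (0.22, adjusted p = 0.00618). Within arrays, NFE2L2 minus KEAP1 shifted by -0.20 with a 95% interval from -0.31 to -0.10. That difference ran from 0.42 to 0.59 in parental and from 0.24 to 0.44 in knockout arrays, with 1 knockout array, replicate 5, inside the parental range (exact two-sided permutation test, p = 0.0159, adjusted p = 0.0159 over the 2 pairs).

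**Figure D3:**
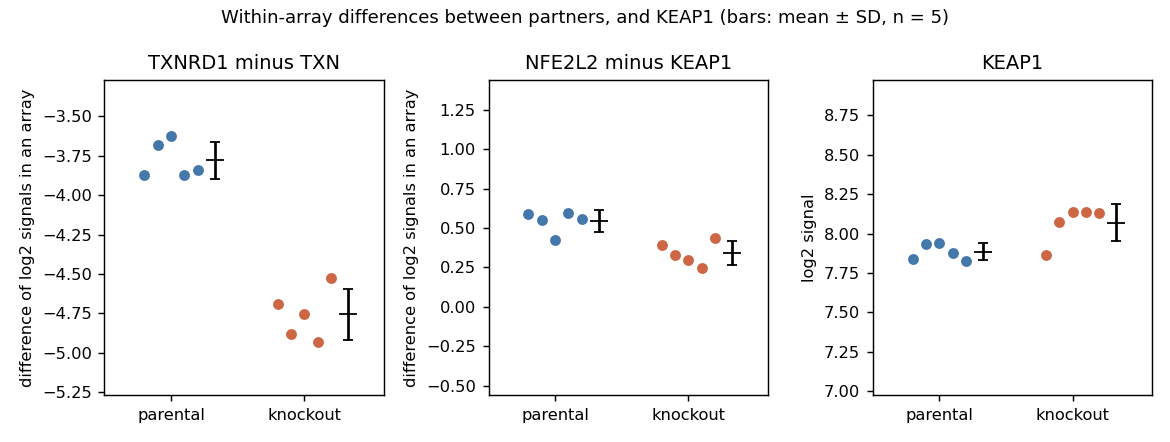
Within-array differences of log2 signals for TXNRD1 minus TXN and NFE2L2 minus KEAP1, and the log2 signal of KEAP1, in 5 parental and 5 knockout arrays with mean and SD; all panels span the same height. The TXNRD1 minus TXN points shifted by -0.98 without overlap, those of NFE2L2 minus KEAP1 by -0.20, and knockout replicate 1 of KEAP1 (7.87) lies among the parental points.

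Genes of the thioredoxin system moved in both directions. Of its 21 measured genes, TXN, TXNRD1 and SRXN1 among them, 8 rose, 8 fell and 5 did not pass, with a median of -0.02. That is 76.2% called, against 34.3% of all genes, and 15 of the 20 above the median of gene means were called, where 55.6% of all genes were. Of the 5 measured peroxiredoxins, which reduce peroxides at the expense of thioredoxin, 4 rose: PRDX1 rose by 0.65, PRDX2 by 0.45, PRDX3 by 0.32 and PRDX6 by 0.16, while PRDX4, the form of the endoplasmic reticulum, fell by 0.46. PRDX1, a known NRF2 target, read 10.38, 10.39, 10.34, 10.30 and 10.17 in parental and 11.08, 10.91, 10.98, 10.97 and 10.86 in knockout arrays (adjusted p = 3.31e-06). It thus moved opposite to SRXN1, whose product repairs it, and no knockout array reached the parental range in either gene.

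The 3 reductases differed. TXNRD3, a form with an added glutaredoxin domain, rose by 0.77 ± 0.07 (SE, adjusted p = 1.04e-06), with signals of 6.30 to 6.40 in parental and of 6.93 to 7.29 in knockout arrays. TXNRD2, the mitochondrial reductase, was at 0.18 and did not pass (adjusted p = 0.192). Mitochondrial thioredoxin, TXN2, rose by 0.27. TXNIP, which binds and inhibits thioredoxin and also limits glucose uptake, fell from 10.86 ± 0.05 to 9.77 ± 0.10 (SD, n = 5 each), a fall of 1.09 on the log2 scale (limma, adjusted p = 2.09e-08), and its other probe set gave -1.27. TXNDC12, a thioredoxin-like protein of the endoplasmic reticulum, fell by 0.73, and the nucleoredoxin gene NXN rose by 0.61.

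In the list of glutathione synthesis and turnover, rises outnumbered falls, and the rises were in recycling and breakdown (GSR, GGCT, ANPEP and LAP3). Of 11 measured, 4 rose, 1 fell and 6 did not pass, with a median of 0.11. Under median centring 3 rose. The share called was 45.5%, against 34.3% of all genes. Of the 9 above the median of gene means 55.6% were called, the same as the 55.6% of all such genes. GSR, which regenerates reduced glutathione with NADPH, read 8.87, 8.91, 8.80, 8.84 and 8.73 in parental and 9.26, 9.26, 9.37, 9.35 and 9.40 in knockout arrays. All knockout arrays were higher, and GSR rose by 0.50 ± 0.06 (SE, limma, adjusted p = 1.33e-05). GSS, the second enzyme of glutathione synthesis, was at 0.05 (adjusted p = 0.526). The aminopeptidase genes ANPEP and LAP3, which can act on the dipeptide left by glutathione breakdown, rose by 0.59 and 0.39, and GGCT rose by 0.18. CBS, which starts the route from homocysteine to cysteine, fell by 0.92 ± 0.11 (SE, adjusted p = 1.78e-05), from 6.28 ± 0.16 to 5.37 ± 0.22 (SD, n = 5 each). The near-identical copy of CBS in the reference may share its probes. CTH, the next enzyme of that route, was at -0.15 and did not pass, at a signal below the median of gene means.

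Enzymes that use glutathione moved in both directions too. Of 32 measured, 8 rose, 6 fell and 18 did not pass, and 14 lay below the median of gene means. These calls are 43.75% of the list, against 34.3% of all genes. Of the 18 above that median 61.1% were called, against 55.6% of all such genes. GPX8, a peroxidase of the endoplasmic reticulum membrane that lacks the selenocysteine of GPX1 and GPX4, fell by 1.02 ± 0.08 (SE, adjusted p = 3.94e-07). It was the only one of 6 measured glutathione peroxidases to pass, while GPX1 and GPX4 were at 0.13 and 0.02. PTGES, a prostaglandin E synthase of the same membrane protein family as the microsomal transferases, rose by 0.92 (adjusted p = 7.46e-08). Among 15 transferases of the GST genes 4 rose, including GSTK1 (0.45), and 2 fell. GSTP1 was at -0.01, with an adjusted p of 0.940. Transferase genes of the alpha, mu and theta classes are close in sequence, and their probe sets may share signal. The glutaredoxin gene GLRX fell by 0.66, below the median of gene means. The glyoxalase genes parted, GLO1 rising by 0.40 and HAGH falling by 0.61.

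In the list of NRF2 target detoxification enzymes and pumps, which includes HMOX1, OSGIN1 and UGDH, 10 of 35 genes had a value. By limma 0 rose at an adjusted p under 0.05 (1 at an unadjusted p under 0.05), while 4 fell and 6 did not pass, with a median of -0.20. The share called was 40%, against 34.3% of all genes. Of the 8 above the median of gene means 37.5% were called, fewer than the 55.6% of all such genes. Over the alternatives 0 or 1 rose and 4 or 5 fell. There was 1 rise, for example, under the filter on dim genes and when parental replicate 1 was left out. Besides UGDH, the falls were RIT1 (-0.47), the prostaglandin reductase gene PTGR1 (-0.28) and CBR3 (-0.59), a carbonyl reductase gene of low signal whose groups overlapped. CBR1, its neighbour in sequence, was at 0.07 and did not pass. Most genes of this list, the aldo-keto reductases and export pumps among them, were not analysed here.

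NADPH feeds both TXNRD1 and GSR, and 7 of 8 measured genes of its supply passed, 4 upward and 3 downward. That is 87.5%, and all 8 lie above the median of gene means, where 55.6% of all genes passed. TKT, TALDO1 and PGD of the pentose phosphate pathway rose by 0.83, 0.37 and 0.63, and NNT, the mitochondrial transhydrogenase, by 0.62. PGLS, the lactonase between the oxidative steps, fell by 0.48, MTHFD1L fell by 0.67 and the mitochondrial NAD kinase gene NADK2 fell by 0.43. Catalase, which breaks down hydrogen peroxide without a thiol, had the largest difference of all these lists. CAT read 7.10, 6.99, 7.17, 7.19 and 6.99 in parental and 8.24, 8.49, 8.53, 8.47 and 8.30 in knockout arrays, a rise of 1.32 ± 0.07 (SE, limma, adjusted p = 2.21e-08) or 2.49-fold. Its list otherwise held only CCS, the copper chaperone of superoxide dismutase (0.12, not past the test). Of 10 measured heme and iron genes, which include HMOX1, CPOX (0.34), of heme synthesis, rose and BLVRB (-0.41), a biliverdin reductase, fell, while 8 did not pass. The calls are 20% of this list, against 34.3% of all genes, and 25% of its 8 genes above the median of gene means, against 55.6%. Over the alternatives 1 or 2 heme and iron genes rose and 1 to 3 fell, with 2 falls when parental replicate 4 was left out.

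Over all 8 lists, leaving out the members, 28 of 99 genes with a value rose and 25 fell. Their median was 0.05, and 53.5% were called, against 34.3% of all genes. Of the 78 above the median of gene means 61.5% were called, against 55.6% of all such genes. Over the alternatives 23 to 29 rose and 24 to 27 fell, and rises did not outnumber falls in several of them, with 23 against 25 under median centring and without knockout replicate 2. Without knockout replicate 1 the counts were 28 and 25, and 1 member rose and 3 fell.

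**Figure D4:**
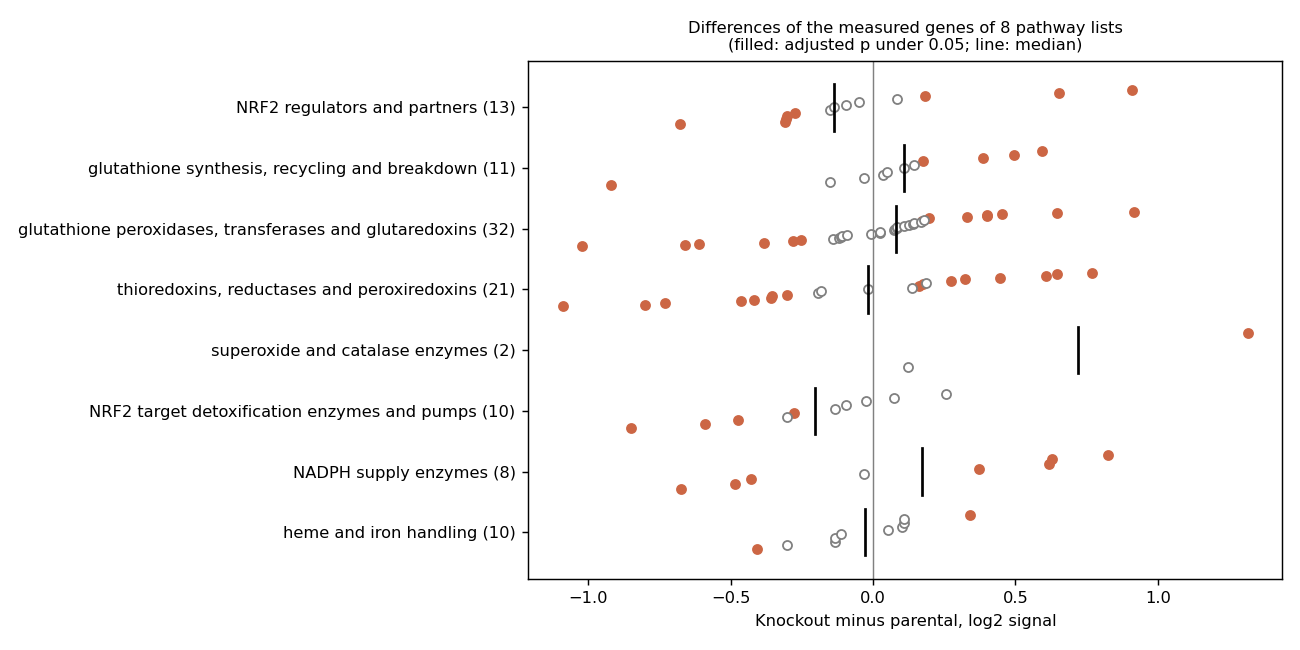
Difference in log2 signal, knockout minus parental, of each measured gene of 8 lists (number of genes in brackets), with filled points for an adjusted p under 0.05 and a line at the median of each list. Medians lie between -0.20 and 0.17 except for the 2 genes of the superoxide and catalase list, and called genes fall on both sides of 0 in 6 of the 8 lists.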

How the data were processed

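RNA of 10 samples was measured on Affymetrix arrays from 1 μg of total RNA. The authors deposited a table of log2 signals with a row for each probe set. The tools were Affymetrix Expression Console and Partek 6.6, per the submitters' processing notes. How they were combined, and how signals were summarised and filtered, is not given in the sources used here. That values are log2 follows from their range, 1.13 to 13.87. Array medians were close but not equal (4.26 to 4.35). Centring each array on its median moved TXN from 0.18 to 0.15 and KEAP1 from 0.18 to 0.16, which ended both calls. The number of arrays limits the precision (median SE 0.08).

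Of 53617 probe sets, 16098 had 1 gene symbol (matched by Entrez identifier to RefSeq, GRCh38.p14), 0 had several and 37519 were unnamed. The probe set with the highest mean stood for each of 14884 genes. Differences were tested, two-sided and without covariates, by limma 3.58.1 (lmFit, eBayes; R 4.3.3). On simulated data of 14884 genes with the real spreads, 100 genes were changed by 0.5 and 100 by 1. Of these 81% and 98% were recovered, with 14 false calls among the unchanged genes. In the real data 5108 genes were called, far more than were changed here, so these rates need not carry over. Exact permutation tests, motif searches and plots used Python 3.11.15, numpy 2.4.6, pandas 2.3.3, scipy 1.17.1 and matplotlib 3.10.9. Of 4 planned pairs 2 were run, because NQO1, GCLC and GCLM were not analysed here.

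Members and lists were chosen with earlier results of these data known. Named genes were all members, up to 6 genes of each list that passed with groups that do not overlap, ranked by absolute difference, and a few fixed by name (some of these were not analysed here). Other genes are named to complete a family or count, after their values were seen. Alternatives were quantile normalisation, centring, mean of probe sets, a filter on dim genes, other variance models, a replicate block and each array left out.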

Additional observations from a re-analysis of the deposited data

Results flagged for a closer look

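In 41 named genes, 82 groups of 5 arrays were examined for an array far from the other 4, and 4 were found, about what chance gives at 1 in 20 groups. SRXN1 in parental replicate 5 was at 8.13, against 8.35 to 8.38 in the other parental arrays. KEAP1 in knockout replicate 1 was at 7.87, against 8.07 to 8.14 in the other knockout arrays. BTRC in knockout replicate 5 was at 7.78, against 7.49 to 7.57. NNT in knockout replicate 5 was at 9.50, against 9.45 to 9.46, a small gap in a tight group.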

How the results depend on the processing

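Across 17 alternatives, TXNRD1, SRXN1 and UGDH fell past the threshold every time. The count of members that rose was 0 under median centring and 0 to 1 with an array left out, in each case through TXN, and that of members that fell was 3 or 4, the fourth being HMOX1. NFE2L2 changed sign under quantile normalisation (0.030) and ran from -0.059 to 0.019 with an array left out. Of the other genes named by rule only KEAP1 lost its call, in 11 alternatives. Genes named to complete a family or count were followed only through the list counts, and some of these moved. Under median centring 6 genes of the thioredoxin list rose in place of 8, and 3 of glutathione synthesis and turnover in place of 4. Same-numbered arrays of the groups deviated together (r over 0.1) in only 1 of 5 pairs, and 2 of 5 parental arrays correlated best with their own number, so the numbers were not taken to pair samples. With the replicate number as a block, 4972 genes were called against 5108, HMOX1 passed (adjusted p = 0.0438) and KEAP1 did not (adjusted p = 0.0528). In the paired sign-flip test the shifts of TXNRD1 minus TXN (-0.98) and of NFE2L2 minus KEAP1 (-0.20) had an adjusted p of 0.0625, the smallest that 5 pairs allow. For TXNRD1 minus TXN that outcome too was fixed by the separated groups of both genes. Each measured member has 1 probe set, so averaging probe sets moved none of their differences. Dim probe sets compress differences, which touches OSGIN1 most.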
